A study of Mus musculus with 16 samples.

Results

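Odor exposure was compared with exposure to filtered air in the olfactory mucosa of S100a5-tauGFP mice (strain C57BL/6, both sexes, ages 7 to 12 weeks), after the GFP+ and GFP- cells of each pool of mice had been averaged. All 16 samples of the series enter the comparison. They are the paired GFP+ and GFP- libraries of 8 pools, 4 exposed to odor and 4 to vehicle. For each gene the log2 values of the pair were averaged, and the 4 odor means were set against the 4 vehicle means. Each of 24 mice was housed alone in a chamber flushed with clean air at 3.1 L/min for 40 h. The final 14 h, from 26 h onward, brought a pulse of 10 s every 20 min, either of filtered air (vehicle) or of isoamyl acetate mixed with whiskey lactone. The mucosa of 3 mice made 1 pool, cells were sorted by fluorescence, and biotin-labelled RNA from 50 to 100 ng was hybridised to Affymetrix arrays. Every mouse in both treatments carried the reporter, in which S100a5 drives GFP. The title and the cell type tag of a sample named opposite fractions in 16 of 16 samples. The pool mean is the same whichever is right, so the comparison does not depend on that choice.

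Olfactory sensory neurons detect odors through G protein-coupled odorant receptors, and each mature neuron expresses a single receptor gene. Binding of an odorant activates a G protein, adenylyl cyclase 3 and a cyclic nucleotide-gated channel, and the resulting calcium and cAMP signals alter transcription. The calcium-binding protein S100a5 and the adhesion molecule Kirrel2 are known to be raised by activity in these neurons, while stem cells, supporting cells and glands share the epithelium with them. A mean over both sorted fractions gives the GFP+ and GFP- cells equal weight, so it describes neither the whole mucosa nor the active neurons alone. In such bulk samples fewer cells of a type and less RNA per cell cannot be told apart.

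Pcdh10 and Camk2n1 were the only genes called in the pool means, that is, the only ones with an adjusted p under 0.05, and both rose with odor. Pcdh10 encodes a protocadherin, a cell adhesion protein of the olfactory and other neural systems. Camk2n1 encodes an inhibitor of the calcium/calmodulin-dependent kinase CaMKII. These 2 calls of 19505 genes tested make 0.0103% of the genes. No gene was called lower: limma called 0, with 648 lower at an unadjusted p under 0.05. In all, 1402 genes (7.19%) had an unadjusted p under 0.05, 754 of them higher with odor (3.87%) and 648 lower (3.32%). The pool means did not overlap between treatments for 852 genes (4.37%), with 441 higher (2.26%) and 411 lower (2.11%). The median difference over all genes was -0.02.

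Pcdh10 averaged 10.76, 10.84, 11.25 and 11.18 in odor pools 1 to 4. In vehicle pools 1 to 4 it averaged 8.28, 9.36, 8.68 and 8.25. Every odor pool lay above every vehicle pool, and the nearest were 9.36 and 10.76. The means were 11.01 ± 0.24 and 8.64 ± 0.52 (SD, n = 4 pools each), and Pcdh10 rose by 2.37 ± 0.23 (SE) on the log2 scale, with a 95% interval of 1.86 to 2.88 and a limma adjusted p of 0.0056. It was the largest difference of all 19505 genes. Among single libraries, odor ran from 9.85 to 11.92 and vehicle from 7.64 to 10.04. The libraries overlapped, as the highest vehicle library was above the lowest odor library. The difference was 1.87 over the libraries titled GFP+ and 2.87 over those titled GFP-. Without vehicle pool 3, whose fractions run against the other pools, these were 2.15 and 2.61.

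Camk2n1 averaged 9.13, 8.94, 9.38 and 9.36 in odor pools 1 to 4. It averaged 7.74, 7.70, 7.47 and 7.72 in vehicle pools 1 to 4. The groups lay well apart, and the pools within each treatment stayed close together. Camk2n1 rose by 1.54 ± 0.13 (SE), from 7.66 ± 0.13 to 9.20 ± 0.21 (SD, n = 4 pools each), with a 95% interval of 1.25 to 1.83 and a limma adjusted p of 0.00277. All 8 odor libraries, at 8.71 or more, lay above all 8 vehicle libraries, at 8.12 or less. The difference was 1.23 over libraries titled GFP+ and 1.86 over those titled GFP-, or 1.00 and 1.95 without vehicle pool 3. Without vehicle pool 3, whose fractions run against the other pools, Camk2n1 rose by 1.48 and Pcdh10 by 2.38, with limma adjusted p of 0.0151 and 0.0327, and they were again the 2 genes called.

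**Figure D1:**
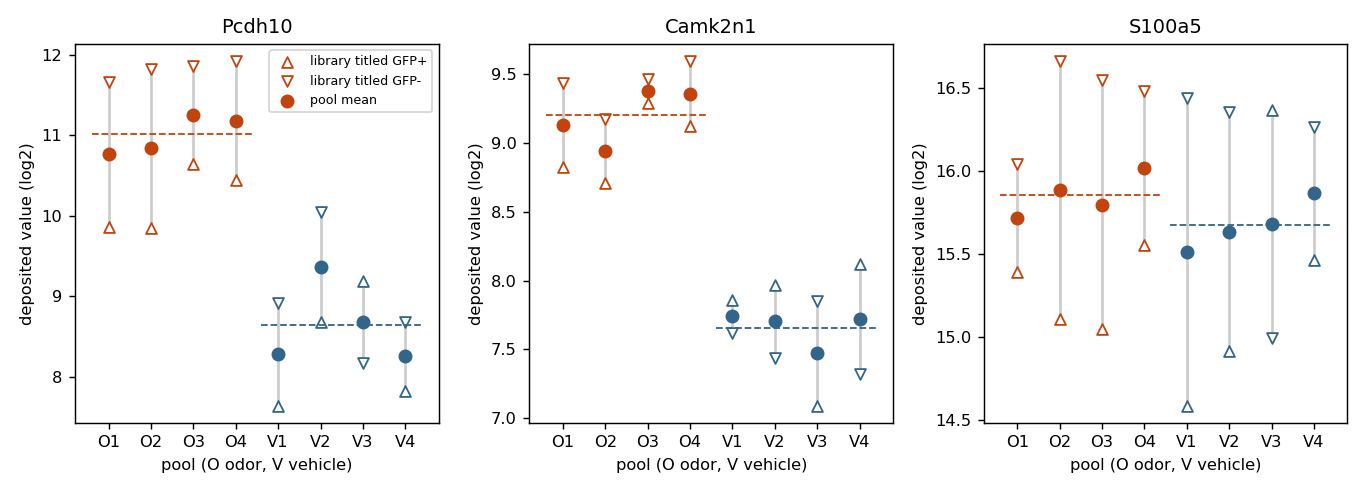
Deposited log2 values of Pcdh10, Camk2n1 and S100a5 (vertical axes, a separate scale for each gene) in the 8 pools, O1 to O4 for odor and V1 to V4 for vehicle. Triangles are single libraries, pointing up for those titled GFP+ and down for those titled GFP-, filled circles are pool means and dashed lines are treatment means. The odor pools of Pcdh10 lie at 10.76 to 11.25 against 8.25 to 9.36 for vehicle, those of Camk2n1 at 8.94 to 9.38 against 7.47 to 7.74, and the S100a5 pools overlap.

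The upstream stretches of Pcdh10 and of the reporter gene S100a5 are shown to set the gene with the largest rise beside the activity marker itself. Both come from RefSeq on build GRCm38.p6, plus strand, and cover the 250 bases before the start site. Pcdh10 is at chr3:45378148-45378397 and S100a5 at chr3:90608272-90608521. Capitals mark TGACG, a core of the cAMP response element bound by CREB, which was searched on both strands (TGACG or CGTCA).

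Pcdh10: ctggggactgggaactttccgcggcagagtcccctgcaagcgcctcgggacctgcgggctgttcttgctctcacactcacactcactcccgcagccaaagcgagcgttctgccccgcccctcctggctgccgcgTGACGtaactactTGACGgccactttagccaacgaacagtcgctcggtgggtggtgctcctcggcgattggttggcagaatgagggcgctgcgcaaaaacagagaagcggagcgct

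S100a5: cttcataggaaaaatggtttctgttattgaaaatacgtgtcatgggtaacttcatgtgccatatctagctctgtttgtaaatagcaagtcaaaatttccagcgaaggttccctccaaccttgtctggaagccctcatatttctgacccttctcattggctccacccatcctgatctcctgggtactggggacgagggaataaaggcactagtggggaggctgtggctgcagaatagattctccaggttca

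Pcdh10 holds this motif at 2 places, beginning at -116 and -103 from the start site, and the S100a5 window has 0 matches. Of the genes described below that were also searched, Kirrel2, Lrrc3b, Hivep2 and Epha7 had 0 matches and Jag1 had 1. No window was available for Camk2n1, the other called gene. Of 32851 RefSeq windows of the same kind (300 bases, from 250 before to 50 after the start), 20.8% hold the motif at least once and 5.01% at 2 or more places. The palindrome TGACGTCA, which contains TGACG on both strands, is in 1.79% of windows and not in that of Pcdh10. A match describes the sequence and says nothing about binding.

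The remaining genes with the smallest p among those higher with odor did not pass, with limma adjusted p from 0.225 upward. Hivep2, a zinc finger transcription factor, averaged 9.57, 9.43, 9.72 and 9.40 in odor pools 1 to 4, against 8.78, 8.65, 8.91 and 8.63 in vehicle. No pools overlapped, and the difference of 0.79 ± 0.12 (SE) had an adjusted p of 0.225. Epha7, an ephrin receptor used in axon guidance, averaged 12.89 ± 0.04 with odor and 12.22 ± 0.10 with vehicle (SD, n = 4 pools each; difference 0.67, adjusted p = 0.225). Larger differences with more spread were seen for the Notch ligand Jag1 (1.11 ± 0.19, SE), the nuclear matrix protein Banp (1.21 ± 0.22, SE) and Dzip3, a ubiquitin ligase (1.23 ± 0.24, SE). Their adjusted p were 0.264, 0.334 and 0.369. Banp had 0.00864 in a limma fit that pairs pools by number, described at the end. Hivep2, Epha7, Jag1 and Dzip3 had 0.0843, 0.122, 0.0983 and 0.0843 in that fit and did not pass. Pairing by number was not shown for all pools. Pacsin3, an endocytic adaptor, and Pds5b, a cohesin regulator, differed by 0.66 and 0.68. Adam15, Spon2 and Kcnh8 differed by 0.60, 0.73 and 0.72, and their pool means lay between 4.80 and 6.43, around the median of 5.46 of the array's negative control probe sets. For each of these 10 genes the 4 odor pools lay above the 4 vehicle pools, as in 2.26% of all genes.

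The genes with the smallest p among those lower with odor did not pass either. Arid5a, an RNA-binding protein, averaged 5.77, 5.89, 5.85 and 5.56 in odor pools 1 to 4, and 6.53, 6.45, 6.40 and 6.48 in vehicle. The groups were apart, by -0.70 ± 0.11 (SE), at an adjusted p of 0.253 and near the control median. Cdt1, which licenses DNA replication, differed by -0.79 ± 0.14 (SE; adjusted p = 0.334), and Zik1, a zinc finger protein, by -0.71 ± 0.13 (SE; adjusted p = 0.334). Evi5, a GTPase-activating protein for Rab11, was tight and bright: 12.10 ± 0.09 with odor and 12.63 ± 0.02 with vehicle (SD, n = 4 pools each; difference -0.53, adjusted p = 0.369). Sh2d3c differed by -0.66, Tprgl by -0.61 and the kinase Map3k9 by -0.90. Prok2, whose product is a secreted peptide, and Alb, serum albumin, lay below the control median in every pool and differed by -0.66 and -0.49.

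Differences beyond 1 on the log2 scale in either direction were found for 15 genes, 13 higher and 2 lower with odor. For 97.6% of genes the 95% interval of the difference lay wholly within -1 to 1. The median standard error was 0.14 and the median half-width of the interval 0.32.

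**Figure D2:**
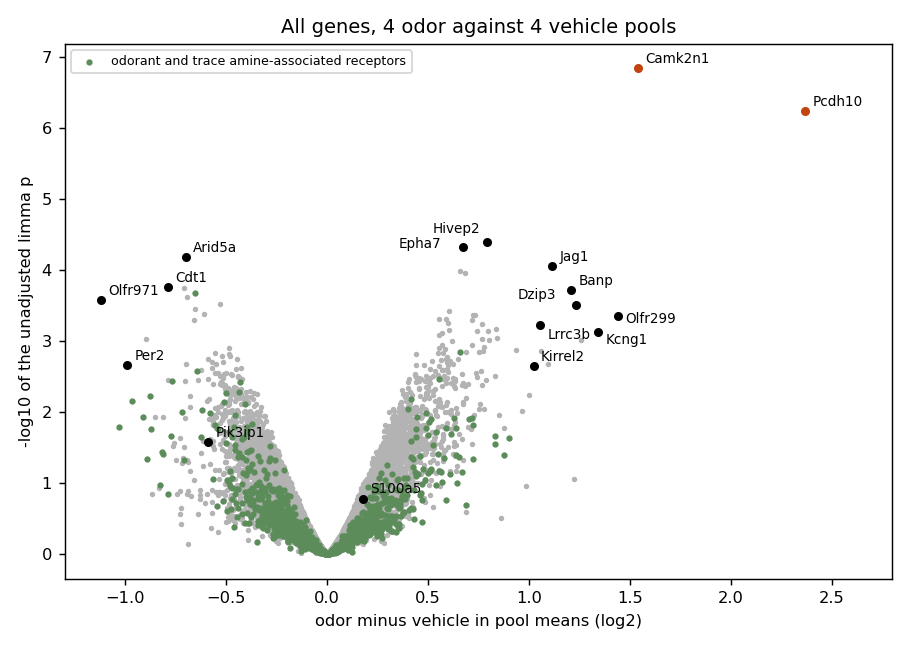
Difference between treatments (horizontal axis, odor minus vehicle in pool means, log2) against -log10 of the unadjusted limma p (vertical axis) for all 19505 genes. Red points are Camk2n1 and Pcdh10, the 2 genes called, green points are odorant and trace amine-associated receptors, and black points are other genes named in the text; both red points lie apart from the rest at the upper right.

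S100a5, the gene that carries the reporter, did not pass the test. It averaged 15.72, 15.89, 15.80 and 16.02 in odor pools 1 to 4, and 15.51, 15.63, 15.68 and 15.87 in vehicle pools 1 to 4. The groups overlapped, and the means were 15.85 ± 0.13 and 15.67 ± 0.15 (SD, n = 4 pools each). The difference of 0.18 ± 0.12 (SE) had a 95% interval of -0.09 to 0.44, a limma adjusted p of 0.805 and an exact two-sided permutation p of 0.114, where 0.0286 is the smallest this design allows. The interval leaves out a rise of 1. Within pools the library titled GFP- had more S100a5 in 7 of 8 pools, and vehicle pool 3 ran the other way. Such exchanges between fractions leave the pool mean as it is. S100a5 is bright in a table that runs from 1.69 to 19.4, above the limit of 16 that a 16-bit scanner sets on this scale, so differences are not given as folds.

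Of the 8 genes listed as raised by activity in sensory neurons, 6 were measured and 0 were called by limma. At an unadjusted p under 0.05, 2 were higher and 0 lower, beside 3.87% and 3.32% of all genes. Their median difference was 0.11, against -0.02 for all genes. Lrrc3b, a leucine-rich repeat membrane protein, averaged 13.39, 13.39, 13.89 and 13.31 with odor and 12.41, 11.98, 13.09 and 12.29 with vehicle. The pools did not overlap, and the difference of 1.05 ± 0.22 (SE) had an adjusted p of 0.39. Kirrel2, an immunoglobulin-type adhesion molecule of sensory axons, averaged 14.73, 14.46, 15.61 and 14.89 with odor and 13.73, 13.48, 14.48 and 13.92 with vehicle. Vehicle pool 3 at 14.48 was just above odor pool 2 at 14.46, the lone overlap. The difference of 1.02 ± 0.26 (SE) had an adjusted p of 0.492. Same-numbered pools differed in Kirrel2 by 1.00, 0.98, 1.13 and 0.97. A limma fit with a replicate block, described at the end, gave Kirrel2 and Lrrc3b adjusted p of 0.0201 and 0.0411. That fit takes same-numbered pools as pairs, which was not shown for all pools, and it gave S100a5 an adjusted p of 0.651. Calb2, the calcium buffer calretinin, differed the other way, by -0.20 ± 0.11 (SE; adjusted p = 0.762).

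The list of genes lowered by activity had 6 measured members, of which 2 were called, beside 0.0103% of all genes. Both of them, Pcdh10 and Camk2n1, were higher with odor. They moved against the name of that list, whose membership was not checked against a source. Its members were chosen with earlier results of these data known, so the count is not separate support for either call. Pik3ip1, an inhibitor of PI3 kinase on the same list, averaged 10.87, 10.80, 10.64 and 10.74 with odor. In vehicle it averaged 11.75, 11.53, 10.53 and 11.60, so vehicle pool 3 lay below all odor pools while the other three vehicle pools lay above them. The difference was -0.59 ± 0.23 (SE; adjusted p = 0.636), and -0.86 without vehicle pool 3 (adjusted p = 0.0641). That was the most extreme of 18 alternatives, over which Pik3ip1 ran from -0.86 to -0.44. The limma adjusted p ran from 0.0641 to 0.871, and 0 of the alternatives called Pik3ip1. The median of the list was 0.03.

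**Figure D3:**
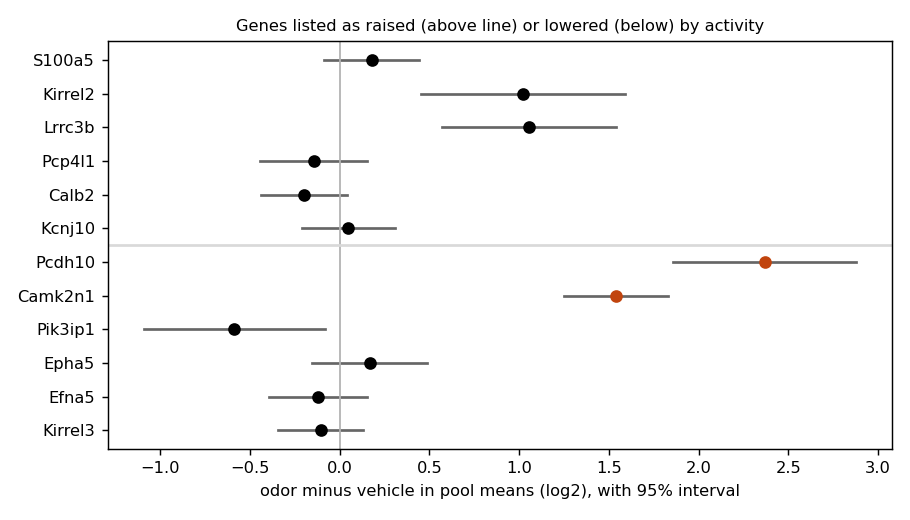
Odor minus vehicle in pool means (horizontal axis, log2) with 95% limma intervals for the 6 measured genes listed as raised by neuronal activity (above the line) and the 6 listed as lowered (below it). Red points are called genes: Pcdh10 at 2.37 and Camk2n1 at 1.54, both on the lower list, while the interval of S100a5 spans -0.09 to 0.44.

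Immediate early genes, which respond within minutes to neuronal activity, showed 0 calls by limma among 36 measured of 38 listed. At an unadjusted p under 0.05, 2 were higher and 2 lower, beside 3.87% and 3.32% of all genes. Their median difference was -0.02, the same as over all genes. Fosb, a partner in the AP-1 transcription factor, averaged 10.18, 10.87, 10.33 and 10.73 with odor and 9.65, 9.87, 9.71 and 10.01 with vehicle. The pools did not overlap, and the difference of 0.72 ± 0.16 (SE) had a limma adjusted p of 0.492, or 0.123 with the replicate block. The AP-1 partner Jund differed by -0.44 and the small Maf protein Maff by -0.52 (adjusted p = 0.547 and 0.499). The nuclear receptor Nr4a2 differed by 0.55 ± 0.19 (SE; adjusted p = 0.621), with overlapping pools.

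Receptors were measured as 1091 odorant and 15 trace amine-associated genes, 978 of these 1106 with a mean above the control median. limma called 0 of them at an adjusted p under 0.05, beside 0.0103% of all genes. At an unadjusted p under 0.05 there were 35 odorant receptors higher and 48 lower, against 3.87% and 3.32% of all genes. The pool means did not overlap for 9 of the 1106 receptors higher with odor and 13 lower, beside 2.26% and 2.11% of all genes. The median odorant receptor differed by -0.03, and the range ran from -1.12 to 1.44. For 86.9% of the 1106 the interval lay within -1 to 1, a smaller share than the 97.6% of all genes.

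Olfr299 had the largest positive receptor difference. It averaged 6.31, 7.24, 6.59 and 7.72 in odor pools and 5.52, 4.98, 5.83 and 5.76 in vehicle pools. The treatments did not overlap, and the difference of 1.44 ± 0.29 (SE) had an adjusted p of 0.376. By titled fraction it was 3.35 over libraries titled GFP+ and -0.47 over those titled GFP-, or 2.68 and 0.40 without vehicle pool 3. Olfr1115 and Olfr1434 differed by 0.66 and 0.56, both without overlap and both with an adjusted p of 0.492. Olfr1434 also differed by fraction, by 2.13 over titled GFP+ and -1.01 over titled GFP-, or 0.88 and 0.22 without vehicle pool 3.

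Olfr971 had the largest negative difference of all genes, with pool means of 6.12, 6.24, 5.62 and 5.74 in odor and 7.05, 7.58, 7.02 and 6.55 in vehicle. The pools did not overlap, and the difference of -1.12 ± 0.21 (SE) had an adjusted p of 0.364, or 0.0411 with the replicate block. That limma fit pairs pools by number, which was not shown for all pools. Olfr299 and Olfr554 had adjusted p of 0.123 and 0.122 in it. Olfr554 was the receptor with the smallest p: 7.14, 7.36, 7.52 and 7.27 with odor and 7.84 to 8.13 with vehicle, a difference of -0.66 ± 0.12 (SE; adjusted p = 0.338). Olfr669 and Olfr1495 differed by -0.77 and -0.64, and Olfr33 by -0.50. By titled fraction Olfr1495 differed by 1.45 (GFP+) and -2.74 (GFP-), or -0.18 and -1.05 without vehicle pool 3. Its odor libraries titled GFP- lay at 3.81 to 4.40, below the control median of 5.46, so much of its difference comes from dim libraries. Olfr304 and Olfr1128, at -0.43 and -0.44, lay below the control median. Among the 15 trace amine-associated receptors, which detect volatile amines, 0 were called by limma. At an unadjusted p under 0.05, 2 were lower and 0 higher, beside 3.32% and 3.87% of all genes. These were Taar7d at -0.63 ± 0.23 (SE) and Taar8b at -0.34 ± 0.15 (SE), both with overlapping pools, and the median of the family was -0.13.

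Vomeronasal receptors belong to another sensory organ and were mostly below the control median, with 3 of 203 type 1 and 5 of 120 type 2 genes above it. At an unadjusted p under 0.05, 8 type 1 genes were higher and 5 lower, and 8 type 2 genes were higher and 3 lower. These are 6.40% and 9.17% of the families, beside 7.19% of all genes, and limma called 0 of either. Vmn1r4 and Vmn2r50 had the smallest p of their families, at 0.75 and 0.46 (adjusted p = 0.492 for each).

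Markers of mature sensory neurons were the brightest list and lay level between treatments. The list averaged 15.89 ± 0.05 with odor and 15.93 ± 0.06 with vehicle (SD, n = 4 pools each). Omp, the olfactory marker protein, averaged 18.46, 18.59, 18.48 and 18.58 in odor pools and 18.56, 18.59, 18.58 and 18.57 in vehicle pools. The difference was -0.05 ± 0.10 (SE), with a 95% interval of -0.27 to 0.17. Omp lies near the table's highest value of 19.4, and whether such bright values are compressed was not tested. Of 17 measured olfactory transduction genes limma called 0. At an unadjusted p under 0.05, 1 was higher and 1 lower, beside 3.87% and 3.32% of all genes. These were the phosphodiesterase Pde4a, at 0.37 ± 0.13 (SE; adjusted p = 0.623), and the channel subunit Cngb1, at -0.50 ± 0.16 (SE; adjusted p = 0.599), dim on this array. Ano2, the calcium-activated chloride channel, differed by -0.13 ± 0.11 (SE).

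Among 31 protocadherins Pcdh10 was the single member called, beside 0.0103% of all genes, and the median difference of the family was 0.01. Pcdh10 was also the single member called among 19 axon guidance genes, which is the same call seen in another list. At an unadjusted p under 0.05, 3 of those 19 were higher and 0 lower, beside 3.87% and 3.32% of all genes. The other two were Kirrel2 at 1.02 and Plxna3, a semaphorin receptor, at 0.57 ± 0.21 (SE; adjusted p = 0.631). The median of the 19 was -0.03.

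Potassium channel genes had 3 higher and 0 lower of 13 measured at an unadjusted p under 0.05, beside 3.87% and 3.32% of all genes, and limma called 0. The channel-modifying subunit Kcng1 averaged 10.01, 9.69, 10.85 and 10.09 with odor and 8.92, 8.19, 9.52 and 8.65 with vehicle. Odor and vehicle did not overlap, and the difference of 1.34 ± 0.29 (SE) had an adjusted p of 0.416, or 0.00784 with the replicate block. Kcnmb3, an auxiliary subunit of large-conductance channels, differed by 0.70 ± 0.19 (SE) and Kcna2, a delayed rectifier, by 0.35 ± 0.13 (SE). Their limma adjusted p with the replicate block were 0.218 and 0.425. The pairing that this block assumes was not shown for all pools. The median of the list was 0.12, against -0.02 for all genes. Synaptic vesicle genes had 0 of 13 at an unadjusted p under 0.05, and genes of receptor choice had 1 of 17, the histone methyltransferase Ehmt1 at 0.38. Of 14 ciliary transport genes Cep290 alone reached an unadjusted p under 0.05, at 0.31 ± 0.12 (SE; adjusted p = 0.636).

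Immature neurons and dividing progenitors gave 0 calls by limma. Over all genes, 3.32% were lower at an unadjusted p under 0.05. Of 13 immature neuron markers, 2 were lower at an unadjusted p under 0.05: Stmn4, a microtubule regulator, at -0.52 ± 0.14 (SE; adjusted p = 0.506), and Gap43, a growth cone protein, at -0.52 ± 0.18 (SE; adjusted p = 0.613). Stmn4 averaged 14.41, 14.24, 14.09 and 14.54 with odor and 14.89, 15.04, 14.54 and 14.91 with vehicle, so vehicle pool 3 met odor pool 4. The median of this list was -0.01. Of 29 cell cycle genes, 22 had a negative difference, beside 10448 of all 19505 genes. The median of the 29 was -0.16, and 2 were lower at an unadjusted p under 0.05. These were the cell cycle kinases Aurkb and Wee1, each at -0.70 (adjusted p = 0.492 for both). Aurkb averaged 5.20 over all arrays, below the control median. Wee1 averaged 7.36 in vehicle pool 3, beside 8.13 to 8.28 in the other vehicle pools and 7.17 to 7.43 in the odor pools. Globose progenitors had 1 of 10 lower, Tex15 at -0.49, and horizontal basal cell markers had 0 of 8.

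**Figure D4:**
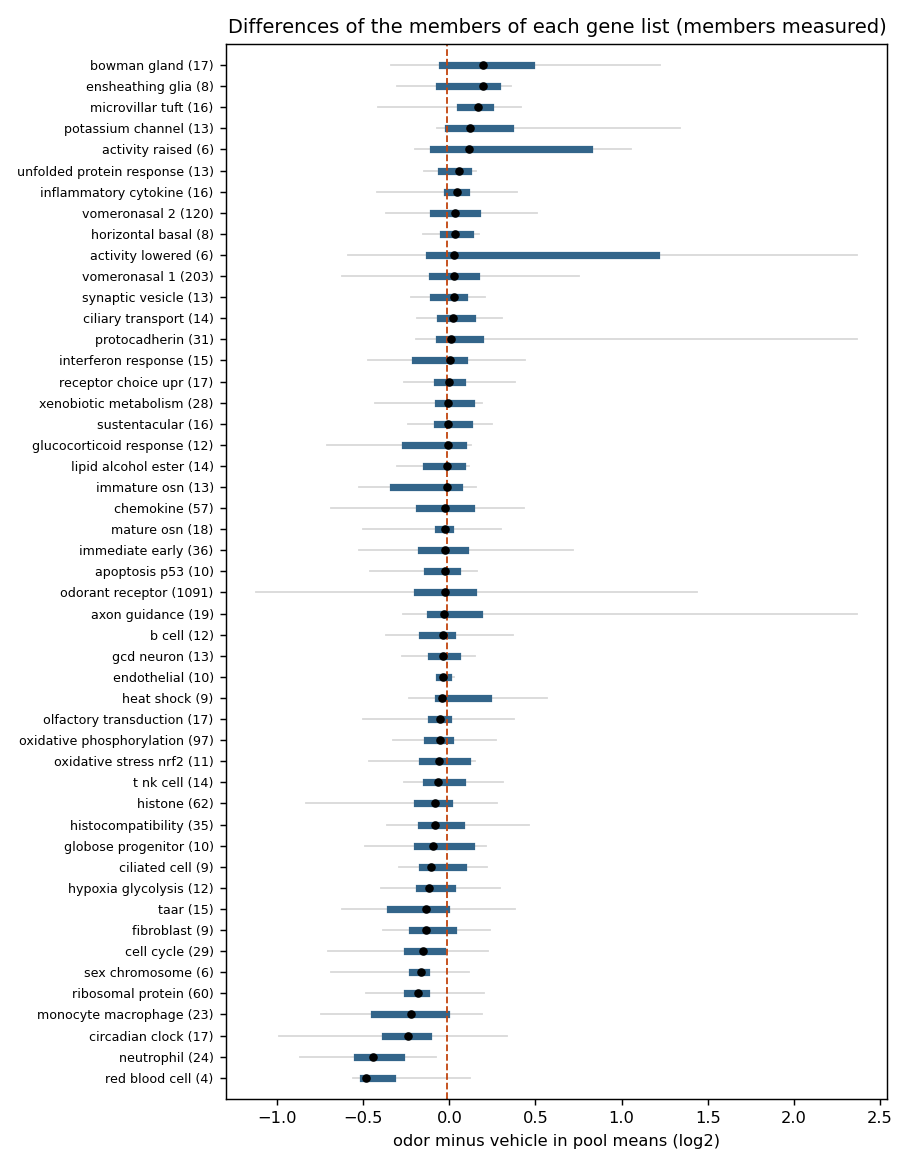
Odor minus vehicle in pool means (horizontal axis, log2) for the members of each gene list, with the number measured in brackets. Dots are medians, thick bars run from the first to the third quartile, thin lines span all members, and the dashed line is the median of all genes at -0.02; medians lie between -0.48 for red blood cell genes and 0.20 for Bowman gland genes.

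Supporting and glandular cells gave 0 calls by limma and, for sustentacular, Bowman gland and microvillar or tuft cell markers, 0 of 16, 0 of 17 and 0 of 16 at an unadjusted p under 0.05. Sustentacular markers averaged 8.92 ± 0.55 with odor and 8.91 ± 0.27 with vehicle (SD, n = 4 pools each). Cyp2g1, an olfactory cytochrome P450, differed by -0.24 ± 0.31 (SE). Bowman gland genes had a median of 0.20, with Bpifb9b, a secreted protein, at 1.22 and a standard error of 0.65. Genes of xenobiotic metabolism, which clear odorants in this tissue, had 0 of 28 and genes of lipid, alcohol and ester metabolism 0 of 14 at an unadjusted p under 0.05, with medians of -0.01 each. Sox10, a glial transcription factor, differed by 0.36 ± 0.14 (SE; adjusted p = 0.636). It was the 1 of 8 ensheathing glia genes at an unadjusted p under 0.05, beside 7.19% of all genes.

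Levels of blood cell markers differed between pools, in a way that crossed the treatments. Neutrophil genes averaged 8.50, 8.25, 7.46 and 6.63 in odor pools 1 to 4 and 8.96, 8.49, 6.98 and 8.12 in vehicle pools 1 to 4. They were low in odor pools 3 and 4 and in vehicle pool 3. All 24 measured members had a negative difference, beside 10448 of all 19505 genes. The median of the 24 was -0.44 and the range -0.87 to -0.08. Yet 0 of the 24 reached an unadjusted p under 0.05, and limma called 0. S100a9, an alarmin of neutrophils, differed by -0.87 ± 0.54 (SE; adjusted p = 0.786). Monocyte and macrophage genes had a median of -0.22 and 0 of 23 at an unadjusted p under 0.05. Lcn2, a neutrophil granule protein, ran from 9.68 to 12.81 across odor pools and from 9.96 to 13.02 across vehicle pools. The first principal component of the pool means, with 27.3% of the variance, set odor pools 3 and 4 and vehicle pool 3 apart from the rest. Of 4 measured red blood cell genes, 2 were lower at an unadjusted p under 0.05, beside 3.32% of all genes. These were the transcriptional regulator Hemgn at -0.48 and the anion exchanger Slc4a1 at -0.56 (adjusted p = 0.599 and 0.658). With the neutrophil level of each pool as a covariate, an alternative added after the data were seen, Camk2n1 and Pcdh10 were again the 2 genes called.

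Y-linked genes also separated the pools. Eif2s3y averaged 6.02, 2.74, 9.87 and 2.73 in odor pools 1 to 4 and 8.90, 2.87, 9.54 and 2.79 in vehicle pools 1 to 4. Pools 1 and 3 of both treatments lay above pools 2 and 4, and odor pool 1 was the lowest of the higher pools. Uty and Kdm5d were split in the same way, at 7.93 and 4.58 in odor pool 1 beside 8.75 and 5.50 in vehicle pool 1. The treatments therefore each held pools with and without this signal. With the Y-linked level as a covariate, also added later, the same 2 genes were called.

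**Figure D5:**
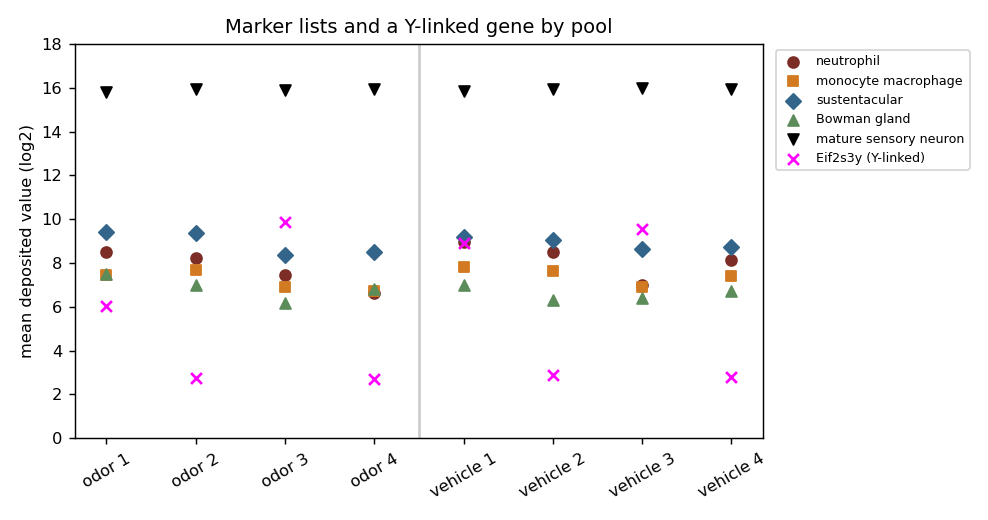
Mean deposited value (vertical axis, log2) of 5 marker lists and of the Y-linked gene Eif2s3y in each of the 8 pools. Mature sensory neuron markers lie between 15.83 and 15.98 in all pools, and neutrophil markers run from 6.63 to 8.96. Eif2s3y is higher in pools 1 and 3 than in pools 2 and 4 of both treatments, with odor pool 1 in between at 6.02.

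Circadian clock genes had 5 of 17 lower and 0 higher at an unadjusted p under 0.05, beside 3.32% and 3.87% of all genes, and limma called 0. Per2, a repressor of the clock loop, averaged 10.56, 10.03, 10.31 and 10.43 with odor and 11.48, 11.27, 10.57 and 11.97 with vehicle. The pools did not overlap, though vehicle pool 3 at 10.57 came close to odor pool 1 at 10.56. The difference of -0.99 ± 0.25 (SE) had an adjusted p of 0.492. Its partner Per1 differed by -0.71 ± 0.31 (SE), Per3 by -0.37 ± 0.17 (SE), and the repressors Bhlhe41 and Ciart by -0.57 ± 0.19 and -0.71 ± 0.28 (SE). Ciart averaged 5.16 over all arrays, below the control median. Per1 averaged 10.16 in vehicle pool 3, beside 11.41 to 11.71 in the other vehicle pools and 10.08 to 10.99 in the odor pools. Without that pool Per1 and Per2 differed by -1.06 and -1.24, with adjusted p of 0.124 and 0.0872, and neither passed. That omission removes the lowest vehicle value of both genes, and the other omissions are not shown. The median of the 17 was -0.24, against -0.02 for all genes. The labels used here do not give the hour at which each pool was collected.

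Stress and housekeeping lists gave 0 calls by limma. Over all genes, 3.87% were higher and 3.32% lower at an unadjusted p under 0.05. Bag3 and Hsph1, a co-chaperone and a heat shock protein, differed by 0.57 and 0.35 (adjusted p = 0.599 and 0.638), 2 of 9 heat shock genes at an unadjusted p under 0.05. The glutathione reductase Gsr differed by -0.46 ± 0.16 (SE), 1 of 11 genes of the oxidative stress response. Unfolded protein response genes had 0 of 13 at an unadjusted p under 0.05. Interferon response genes had 2 higher and 2 lower of 15, with Ifit1 at 0.44 and Ifit3 at -0.47, the latter below the control median. Of 60 ribosomal protein genes, 55 had a negative difference, beside 10448 of all 19505 genes. The median of the 60 was -0.18, and 2 were lower at an unadjusted p under 0.05, among them Rpl22 at -0.40. The list averaged 11.73, 12.17, 11.63 and 12.08 with odor and 12.15, 12.42, 11.84 and 11.93 with vehicle, so the pools overlapped. Oxidative phosphorylation genes had 0 of 97 at an unadjusted p under 0.05 and a median of -0.06.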

How the data were processed

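Per the submitters' processing notes, the authors made their deposited log2 values with Affymetrix Expression Console; no version, genome build or summarization method is given in the sources used here. Of 28846 probe sets, 6640 were controls, 19572 had 1 gene symbol, 0 had several and 2634 had none. For 55 genes with several probe sets the brightest was used, which left 19505 genes, 11897 of them above the median of 5222 negative controls. Library medians lay between 6.13 and 6.45, and precision is limited by the 4 pools per treatment. Pool means were compared by limma 3.58.1 (lmFit and eBayes under R 4.3.3, two-sided, without a block), with Benjamini-Hochberg adjustment over all genes and a threshold of 0.05; the code was tested on simulated data. Pools are separate sets of 3 mice.

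Genes were named by rule: S100a5, Omp, the called genes, the 12 smallest p in each direction, the 10 receptors with the smallest p, and up to 3 members of each of 50 lists. Lists are described by counts and medians, with no test of the list. Per1, Per3 and Nr4a2, and the pool markers Lcn2, Eif2s3y, Uty and Kdm5d, were added after their values were seen. Members and lists were chosen with earlier results of these data known. Alternatives covered scaling, averaging, dim genes, probe sets, variance model, blocks, covariates and each pool left out.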

Additional observations from a re-analysis of the deposited data

Results flagged for a closer look

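In groups of 4 pools, a pool was singled out where its gap to the nearest other pool took a share of the group's range above Dixon's 95% critical value. Of 292 groups of genes or list means examined, 12 were singled out, near the number that chance gives at about 1 in 20, and 6 of the 12 were vehicle pool 3. In that pool Camk2n1 was low at 7.47, Jund low at 14.61, Wee1 low at 7.36 and Ifit3 low at 5.07. The genes listed as raised by activity averaged 12.66 there, above the other vehicle pools, and the immediate early genes 8.22, below them. In vehicle pool 4, Zik1 was low at 6.71 and Calb2 low at 13.97. Lrrc3b was high in odor pool 3 at 13.89, and Tex15 was high in vehicle pool 1 at 8.31. Sox10 was high in pool 1 of both treatments, at 5.85 with odor and 5.63 with vehicle.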

How the results depend on the processing

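Pcdh10 and Camk2n1 were called under all 18 alternatives, and were the only calls under 16 of them. Over these, Pcdh10 ranged from 2.24 to 2.61 (adjusted p from 0.000626 to 0.0392) and Camk2n1 from 1.48 to 1.63 (adjusted p from 0.00134 to 0.0192). Leaving out each pool in turn gave 2 calls and 0 receptors every time. S100a5 ranged from 0.13 to 0.24 and was never called. A fit of the 16 libraries with the pool as a random block (correlation 0.0202) called 6 genes: Banp, Epha7, Evi5 and Pds5b besides the pair. Unlike the pool means, it uses the titled fraction as a term, though vehicle pool 3 runs against the other pools. At that correlation it treats the 2 libraries of a pool as nearly independent. Same-numbered odor and vehicle pools correlated in their deviations at 0.376, 0.280, 0.300 and -0.0119. The Y-linked genes were higher in pools 1 and 3 than in pools 2 and 4 of both treatments, with odor pool 1 the lowest of the higher pools. Pool 4 did not correlate with its number, so the numbers were not shown to pair all pools. With a replicate block 9 genes were called, the pair with Banp, Kcng1, Kirrel2, Lrrc3b, Ccdc151, Fam120b and Olfr971, the last being 1 receptor; pool 4 of neither treatment correlated best with its own number. The difference of Cyp2g1 turned to 0.015 with the neutrophil level as a covariate, and the cause was not tested. Of the other values of named genes, 9 newly passed, all under the last 2 fits with blocks. Median centring and quantile scaling kept both calls. The exact test of list means was not run. Dim genes near the control median limit what can be measured.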
